A study of Mus musculus with 11 samples.

Results

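Cells that sense bacterial products make reactive oxygen and nitrogen species and must survive them, and 10 genes from both sides of that balance are described here in mouse macrophages. They comprise the NADPH oxidase catalytic subunits Nox1 and Cybb, the inducible nitric oxide synthase Nos2, the haem-degrading enzyme Hmox1, the mitochondrial superoxide dismutase Sod2, the quinone reductase Nqo1, the glutathione synthesis subunit Gclm, the sulfiredoxin Srxn1, the thioredoxin reductase Txnrd1 and the cystine transporter Slc7a11. They were picked by name with earlier results of these data known, so their counts beside the shares of all genes are a description. Each was represented by 1 probe set annotated with that single symbol, and all 10 were among the 18755 genes measured. None was removed by a filter on low values, since none was applied.

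Macrophages were derived from wild-type C57Bl/6 bone marrow over 1 week with the growth factor M-CSF at 5 ng/ml, and treatment began 24 hours after they had been replated. The LPS plus PGE group (4 arrays) received 100 ng/ml lipopolysaccharide (LPS, a component of bacterial outer membranes) plus prostaglandin E (PGE, a lipid mediator) at 10 µM, for 1 hour. Cells of the LPS group (3 arrays) received the same LPS dose alone for 1 hour, and those of the untreated group (4 arrays) received neither; 1 further LPS array was left out by the authors for quality. No group received PGE alone, and the kind of prostaglandin E is not named. Whether replicates came from separate mice is not stated either, so the p-values cover the spread between these arrays, which may be technical. Each sample gave 250 ng of total RNA to an Affymetrix whole-transcript array, and values are on a log2 scale, on which a difference of 1 is a 2-fold change. A level is compared only with the same gene's level in another group, because probe sets differ in brightness.

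As background, phagocyte NADPH oxidase moves electrons from NADPH to oxygen and so makes superoxide, with Cybb as its catalytic chain, while Nox1 is a related catalytic subunit best known from colon epithelium. Nos2 makes nitric oxide from arginine and is a classic late product of LPS stimulation in mouse macrophages. The transcription factor NRF2 (gene Nfe2l2), held in check by Keap1, drives antioxidant genes such as Hmox1, Nqo1, Gclm, Srxn1, Txnrd1 and Slc7a11 through a DNA motif called the antioxidant response element, and Sod2 is a known NF-kB target.

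All 10 listed macrophage markers lay above the median gene in every group. The mean level of the list was 11.54 to 11.60 on LPS plus PGE arrays, 11.55 to 11.59 on LPS arrays and 11.38 to 11.47 on untreated arrays. Among them, the LPS receptor component Cd14, had changes of 1.64 ± 0.06 with LPS and 2.22 ± 0.06 with LPS plus PGE, both against untreated, while the list's median changes there were -0.057 and -0.045. Apart from Cd14, Msr1 alone passed (0.29 ± 0.07 with LPS, -0.30 ± 0.07 with LPS plus PGE against LPS).

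Markers of 7 other cell types were mostly at or below the median gene. Neutrophil markers (8 measured) averaged 4.46 to 4.63 on LPS plus PGE arrays, 4.44 to 4.77 on LPS arrays and 4.49 to 4.55 on untreated arrays, with 1 above the median in each group. Of 6 dendritic cell markers, 2 lay above the median with LPS plus PGE, 1 with LPS and 1 untreated, and the list averaged 4.83 to 5.12 on LPS plus PGE arrays, 4.78 to 4.92 on LPS arrays and 4.65 to 4.83 on untreated arrays. B cell markers (4 measured) and T and NK cell markers (6 measured) each had 1 above the median in every group. Mast cell and basophil markers (5 measured) had 1 above it with LPS plus PGE, 0 with LPS and 0 untreated, and erythroid (2 measured) and fibroblast and stroma markers (6 measured) had 0 in any group.

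Some of these markers passed between groups, and are named after their values were seen. The chemokine receptor gene Ccr7 was higher with LPS plus PGE, by 0.66 ± 0.17 against LPS (limma adjusted p = 0.0167) and by 0.75 ± 0.16 against untreated (0.00356), and Zbtb46 by 0.30 ± 0.10 against untreated (0.0467). Cd209a had 0.37 ± 0.10 with LPS and -0.31 ± 0.10 with LPS plus PGE against LPS, and the neutrophil receptor gene Cxcr2 had 0.44 ± 0.09 and -0.45 ± 0.09. Klrb1c was lower with LPS plus PGE against LPS (-0.98 ± 0.18), where Col3a1 (0.44 ± 0.07), Pax5 (0.30 ± 0.10), Alas2 (0.29 ± 0.09) and Cd3d (0.27 ± 0.08) were higher. Pax5 passed there by a narrow margin (limma adjusted p = 0.0499). Whether these marker calls hold under other scalings was not examined. Untreated levels of Cd3d (3.40) and Pax5 (3.81) lay below the lower quartile of all genes on those arrays. Those of Cxcr2 (3.95) and Alas2 (4.07) lay just above it. Against untreated, LPS plus PGE gave 0.37 ± 0.08 for Cd3d and -0.68 ± 0.17 for Klrb1c, and Col3a1 had -0.25 ± 0.07 with LPS. No mast cell or basophil marker passed by limma, with 1 higher at an unadjusted p under 0.05 with LPS and 1 with LPS plus PGE, both against untreated. The part of such cells in the results that follow was not tested.

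Lower quartiles of all genes ran from 4.00 to 4.05 on LPS plus PGE arrays, from 3.80 to 3.87 on LPS arrays and from 3.82 to 3.90 on untreated arrays. Background was not measured in these files, so a level near the lower quartile was not told from none.

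The 10 genes fell into distinct patterns. With LPS alone, Nox1, Sod2, Srxn1, Txnrd1 and Slc7a11 rose and none fell. Adding PGE to LPS raised Srxn1, Txnrd1 and Slc7a11 further, lowered Nox1 to levels that overlapped the untreated ones, and lowered Hmox1. Cybb, Nos2, Nqo1 and Gclm passed in no comparison. Each change is a log2 fold change ± SE from a limma fit over all 11 arrays, and passing means an adjusted p (Benjamini-Hochberg, over all 18755 genes) below 0.05. In these bulk samples, fewer cells of a type and less RNA per cell cannot be told apart.

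**Figure D1:**
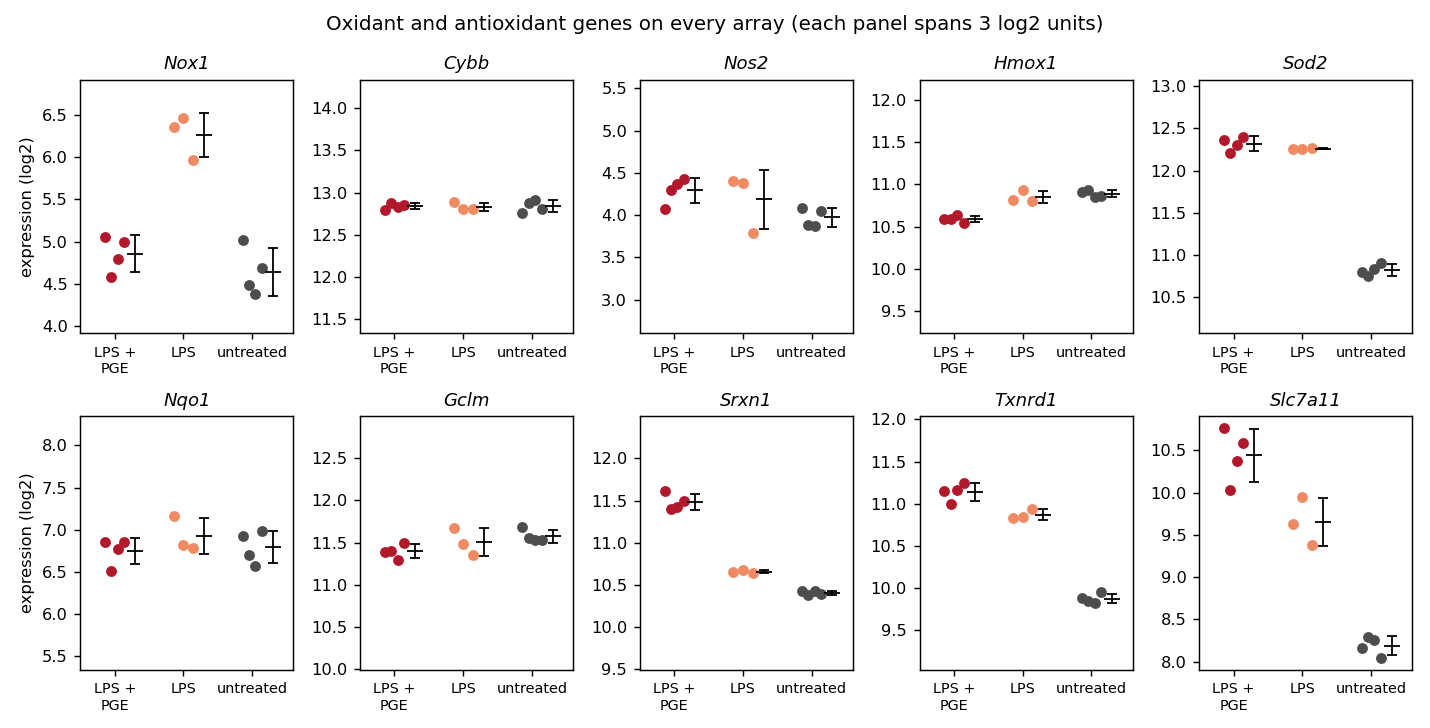
Expression (log2, vertical axis) of the 10 genes on each of the 11 arrays, with 1 point per array and the group mean ± SD beside the points. Nox1 stands high on the LPS arrays only (5.96 to 6.46), Slc7a11, Srxn1 and Txnrd1 are highest with LPS plus PGE and lowest untreated, and Cybb lies between 12.76 and 12.91 on every array.

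In the comparison of LPS with untreated cells, 5 of the 10 genes rose, where 13.2% of all genes passed and 6.55% were higher. None of the 10 was lower by limma, against 6.69% of all genes, with 0 also at an unadjusted p under 0.05. A 2-fold change or more was reached by 3 of them, against 1.93% of all genes, and the arrays of LPS and untreated cells did not overlap for 5 of them, against 23.1% of all genes. The median change of the 10 genes was 0.23, beside -0.015 for all genes.

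In the comparison of LPS plus PGE with LPS, 5 of the 10 genes passed, against 24.7% of all genes. Of these, 3 rose (11.9% of all genes were higher) and 2 fell (12.9% of all genes were lower). Only Nox1 among the 10 changed at least 2-fold, against 0.714% of all genes, and the arrays did not overlap between the groups for 5 of the 10, against 33.9% of all genes. Their median change was 0.04, beside -0.0045 for all genes. The comparison shares its 3 LPS arrays with that of LPS against untreated cells, so a chance deviation of those arrays enters both with opposite sign. Setting LPS plus PGE against untreated does not use the means of those arrays. There, 31.7% of all genes passed and 5 of the 10 did: 4 rose, against 13.8% of all genes, and 1 fell, against 17.9% of all genes. The 4 that rose all rose at least 2-fold, against 2.97% of all genes, and 6 of the 10 did not overlap, against 35.1% of all genes. The median of the 10 there was 0.27, beside 0.017 for all genes.

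**Figure D2:**
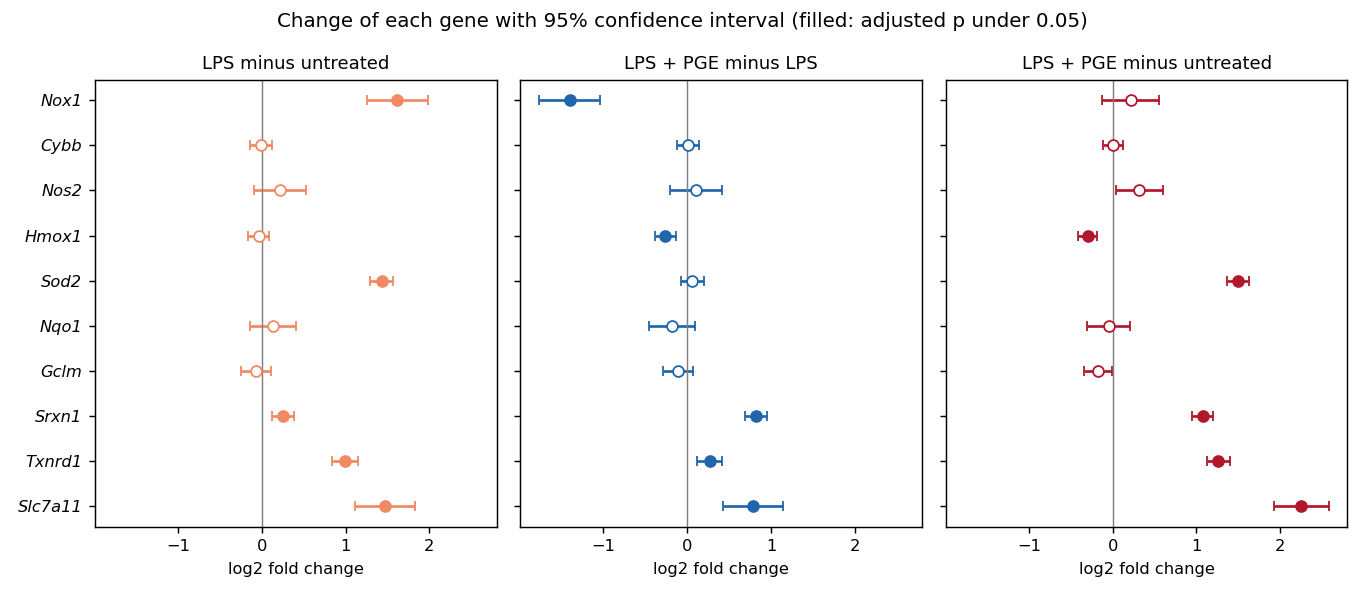
Log2 fold change (horizontal axis) with its 95% confidence interval from limma for the 10 genes, LPS minus untreated on the left, LPS plus PGE minus LPS in the middle and LPS plus PGE minus untreated on the right; filled points passed the adjusted p of 0.05. The middle panel has Nox1 far below 0 at -1.41, while Srxn1 (0.82), Slc7a11 (0.78) and Txnrd1 (0.27) lie above 0.

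Among the oxidant-producing enzymes, Nox1 moved in opposite directions in the first pair of comparisons. Its level was 5.06, 4.58, 4.79 and 5.00 on the LPS plus PGE arrays, 6.36, 6.46 and 5.96 on the LPS arrays, and 5.02, 4.48, 4.37 and 4.69 on the untreated arrays. All 3 LPS arrays therefore stood above every other array, and the LPS plus PGE arrays overlapped the untreated ones. LPS raised Nox1 by 1.62 ± 0.17, or 3.07-fold (limma adjusted p = 3.16e-05). With PGE added it fell by 1.41 on the log2 scale, an SE of 0.17, to a level 2.65-fold lower than with LPS alone (limma adjusted p = 0.000248). That was the fifth largest fall among the 18755 genes in this comparison. Against untreated, LPS plus PGE gave 0.21 ± 0.16 (limma adjusted p = 0.312), with a 95% interval of -0.13 to 0.55. The untreated level, 4.64 ± 0.29 (SD, n = 4), lay between the lower quartile and the median of those arrays.

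By the root mean square difference over the 11 arrays, after each gene was centred on its own mean, the 3 genes most like Nox1 among 17710 named genes were Depp1 (0.18), the oxysterol-making enzyme Ch25h (0.21) and the chromatin protein Hmgb2 (0.25). Ch25h had a log2 fold change of 1.70 with LPS against untreated and of -1.42 with LPS plus PGE against LPS, and Depp1 had 1.56 and -1.21 in the same comparisons. These genes were picked for their likeness, so their values are a description.

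Cybb, the catalytic subunit of the phagocyte oxidase, was measured tightly and did not pass in any comparison. Its level ran from 12.79 to 12.87 on LPS plus PGE arrays, from 12.80 to 12.88 on LPS arrays and from 12.76 to 12.91 on untreated arrays, with full overlap. The change with LPS was -0.01 ± 0.06 (limma adjusted p = 0.932) with a 95% interval of -0.14 to 0.12, and LPS plus PGE against LPS gave 0.01 ± 0.06 (limma adjusted p = 0.905) with an interval of -0.12 to 0.14.

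Partner subunits and relatives of Cybb were listed beside it. Of 10 measured genes in that list, none passed with LPS against untreated by limma, with 2 lower at an unadjusted p under 0.05. Of all genes, 13.2% passed there. Cyba, the membrane partner of Cybb, averaged 12.84 ± 0.03 (SD, n = 4) on LPS plus PGE arrays, 12.85 ± 0.07 (SD, n = 3) on LPS arrays and 12.89 ± 0.03 (SD, n = 4) on untreated arrays. With LPS plus PGE against LPS, 2 genes of that list passed, Nox3 (0.52 ± 0.12) and Nox4 (0.18 ± 0.06), where 24.7% of all genes passed. Both had untreated levels (3.41 and 3.16) below the lower quartile of those arrays. Neither kept its call after quantile normalization (limma adjusted p = 0.0729 for Nox3 and 0.547 for Nox4). With LPS plus PGE against untreated, 1 gene of the list passed, Duox2 (0.37 ± 0.08), where 31.7% of all genes passed. Its untreated level of 3.72 also lay below the lower quartile, and its call ended after quantile normalization too (limma adjusted p = 0.055).

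Nos2 lay near the lower quartile of all genes in each group after this hour of treatment. Its level was 4.08, 4.30, 4.37 and 4.42 on LPS plus PGE arrays, 4.40, 4.38 and 3.78 on LPS arrays, and 4.08, 3.88, 3.87 and 4.05 on untreated arrays. The third LPS array was the lowest of all 11, whereas the other LPS arrays lay above every untreated array. The change with LPS was 0.22 ± 0.14 (limma adjusted p = 0.37) over all arrays and 0.42 without LPS replicate 3 (limma adjusted p = 0.0221). For LPS plus PGE against untreated the change was 0.32 ± 0.13 (limma adjusted p = 0.0808), which passed at 0.0143 without LPS replicate 3. It also passed in a fit of these 2 groups alone (0.0194), with array weights (0.0344) and with equal array medians (0.0222). The equal array medians moved the median of all genes in this comparison to 0.14. After quantile normalization the Nos2 change was 0.14 (limma adjusted p = 0.523), and after cyclic loess normalization 0.20 (limma adjusted p = 0.349), so neither passed. LPS plus PGE against LPS gave 0.10 ± 0.14 (limma adjusted p = 0.612), with a 95% interval of -0.20 to 0.41.

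Other genes of nitric oxide metabolism were listed beside Nos2, 10 of which were measured. With LPS 1 of them rose and none fell (limma; 2 higher and 1 lower at an unadjusted p under 0.05). Of all genes, 6.55% were higher and 6.69% lower with LPS by limma. Gch1, the first enzyme in making the Nos2 cofactor tetrahydrobiopterin, averaged 8.82 ± 0.12 (SD, n = 4) on LPS plus PGE arrays, 8.36 ± 0.03 (SD, n = 3) on LPS arrays and 6.89 ± 0.05 (SD, n = 4) on untreated arrays. LPS raised Gch1 by 1.47 ± 0.07 (limma adjusted p = 1.85e-08), and PGE on top of LPS raised it by another 0.46 ± 0.07 (limma adjusted p = 0.0012). With LPS plus PGE against untreated, Gch1 (1.92 ± 0.06) and the arginine transporter Slc7a2 (0.56 ± 0.17) rose and the cofactor enzyme Pts was lower (-0.21 ± 0.06). The Slc7a2 call ended without LPS plus PGE replicate 1 (limma adjusted p = 0.0807), and that of Pts ended with equal array medians (0.36). Arg1, which competes for arginine, did not pass in any comparison (0.00 ± 0.13 with LPS against untreated, limma adjusted p = 0.999).

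Sod2, which turns mitochondrial superoxide into hydrogen peroxide, rose under both treatments. It stood at 12.36, 12.20, 12.30 and 12.40 on LPS plus PGE arrays, at 12.25, 12.26 and 12.26 on LPS arrays, and at 10.80, 10.75, 10.84 and 10.91 on untreated arrays. Every treated array lay above every untreated one, and the treated groups overlapped each other. The rise was 1.43 ± 0.06 with LPS (2.70-fold, limma adjusted p = 1.10e-08) and 1.49 ± 0.06 with LPS plus PGE (2.82-fold, limma adjusted p = 2.29e-09), both against untreated. LPS plus PGE against LPS gave 0.06 ± 0.06 (limma adjusted p = 0.504), with a 95% interval of -0.08 to 0.20. With equal array medians that difference was 0.22 and passed (limma adjusted p = 0.0327), but the same scaling moved the median of all genes in this comparison to 0.15. The genes most like Sod2 over the 11 arrays were the NF-kB subunit Relb (root mean square difference 0.071), the co-chaperone Dnajb4 (0.072) and the exonuclease Trex1 (0.083).

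Nox1 and Sod2, which both rose with LPS and parted with PGE, are shown with the 250 bases before their RefSeq start sites (GRCm38.p6), 5′ to 3′ on the gene's strand. Capitals mark matches to the kappa B consensus, the binding motif of NF-kB, searched on both strands. RefSeq promoter windows were found for 8 of the 10 genes, 10 windows in all.
Nox1 (chrX:134111855-134112104, minus strand): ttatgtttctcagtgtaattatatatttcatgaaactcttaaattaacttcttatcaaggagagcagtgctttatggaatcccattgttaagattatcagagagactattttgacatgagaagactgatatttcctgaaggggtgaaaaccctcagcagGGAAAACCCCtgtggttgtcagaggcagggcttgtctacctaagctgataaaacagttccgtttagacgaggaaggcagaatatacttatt
Sod2 (chr17:13007589-13007838, plus strand): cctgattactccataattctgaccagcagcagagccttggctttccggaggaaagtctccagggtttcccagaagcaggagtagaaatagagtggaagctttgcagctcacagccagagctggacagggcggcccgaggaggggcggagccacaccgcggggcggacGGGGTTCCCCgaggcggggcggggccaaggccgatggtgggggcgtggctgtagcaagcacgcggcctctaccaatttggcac
The Nox1 window holds 1 match, 91 to 82 bases before the start, and the Sod2 window 1 match, 83 to 74 bases before the start. Of 32841 windows of this length over all genes, 7.25% hold such a match, and no other window of the 8 genes does. A match is a run of letters and was not tested for binding.

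Slc7a11, the subunit of the antiporter that imports cystine for glutathione synthesis, showed the largest rise of the 10 genes with LPS plus PGE against untreated. Its level was 10.77, 10.03, 10.37 and 10.59 on LPS plus PGE arrays, 9.63, 9.95 and 9.39 on LPS arrays, and 8.17, 8.29, 8.25 and 8.04 on untreated arrays. The 3 groups did not overlap and were ordered LPS plus PGE, LPS and untreated from high to low. LPS raised it by 1.47 ± 0.16 (2.77-fold, limma adjusted p = 5.94e-05), and PGE added to LPS by a further 0.78 ± 0.16 (1.72-fold, limma adjusted p = 0.00654). LPS plus PGE against untreated gave 2.25 ± 0.15, or 4.77-fold (limma adjusted p = 3.36e-07). The gap between the LPS plus PGE and LPS groups was narrow, with the lowest LPS plus PGE array at 10.03 and the highest LPS array at 9.95. The genes most like it were AI504432 (root mean square difference 0.17), the urokinase receptor Plaur (0.18) and the interferon-stimulated gene Oasl1 (0.19). Slc3a2, the heavy chain that pairs with Slc7a11, was singled out after its values were seen. It had 12.64 ± 0.03 (SD, n = 4) on LPS plus PGE arrays, 12.46 ± 0.03 (SD, n = 3) on LPS arrays and 12.42 ± 0.05 (SD, n = 4) on untreated arrays, and it passed with LPS plus PGE against untreated (0.22 ± 0.05, limma adjusted p = 0.00561). It also passed against LPS (0.19 ± 0.05, limma adjusted p = 0.0272), a call that ended after cyclic loess normalization (0.0949), after quantile normalization (0.127) and without LPS replicate 2 (0.0703).

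Srxn1, which restores over-oxidised peroxiredoxins, was raised by LPS and again by the added PGE. It had 11.61, 11.41, 11.42 and 11.50 on LPS plus PGE arrays, 10.66, 10.68 and 10.64 on LPS arrays, and 10.43, 10.38, 10.43 and 10.39 on untreated arrays. The 3 groups did not overlap. PGE on top of LPS raised it by 0.82 ± 0.06 (1.77-fold, limma adjusted p = 5.24e-06), whereas LPS alone raised it by 0.25 ± 0.06 (1.19-fold, limma adjusted p = 0.0172). The LPS call was lost with equal array medians (limma adjusted p = 0.0637) and without LPS replicate 2 (0.0558). The whole change from LPS plus PGE, against untreated, was 1.08 ± 0.06, or 2.11-fold (limma adjusted p = 3.59e-08). The genes nearest to its profile were the spermine oxidase Smox (root mean square difference 0.085), the galactosyltransferase B4galt5 (0.091) and Tpbpa (0.093). The untreated level of Tpbpa, 3.45, lay below the lower quartile of all genes on those arrays.

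Txnrd1, the cytosolic reductase that keeps thioredoxin active, was likewise raised at both steps. It stood at 11.16, 11.00, 11.16 and 11.24 on LPS plus PGE arrays, at 10.83, 10.84 and 10.94 on LPS arrays, and at 9.89, 9.84, 9.83 and 9.96 on untreated arrays. The groups again did not overlap, although 11.00 and 10.94 lay close together. LPS raised it by 0.99 ± 0.07 (1.99-fold, limma adjusted p = 7.39e-07). PGE added to LPS gave 0.27 ± 0.07 (limma adjusted p = 0.0167), a call lost by a narrow margin without LPS replicate 1 (0.0501). Its change with LPS plus PGE against untreated was 1.26 ± 0.06, or 2.40-fold (limma adjusted p = 2.42e-08). The cell cycle inhibitor Cdkn1a (root mean square difference 0.085), the apoptosis inhibitor Birc3 (0.096) and the pro-apoptotic gene Bcl2l11 (0.097) had the most similar profiles.

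No rise passed for Hmox1, Nqo1 or Gclm, which were also named above as genes driven by NRF2. Hmox1, which breaks down haem to biliverdin, carbon monoxide and iron, had 10.59, 10.59, 10.64 and 10.54 on LPS plus PGE arrays, 10.82, 10.93 and 10.81 on LPS arrays, and 10.91, 10.94, 10.85 and 10.87 on untreated arrays. All 4 LPS plus PGE arrays lay below all other arrays, while LPS and untreated arrays overlapped. Against LPS the change was -0.26 ± 0.06 (1.20-fold lower, limma adjusted p = 0.008), and against untreated it was -0.30 ± 0.05 (1.23-fold lower, limma adjusted p = 0.00118). LPS against untreated gave -0.04 ± 0.06 (limma adjusted p = 0.745). With equal array medians both falls missed the threshold (-0.10, limma adjusted p = 0.293, against LPS and -0.17, limma adjusted p = 0.0608, against untreated), under a scaling that moved the median of all genes to 0.15 and 0.14. After cyclic loess normalization they were -0.22 (limma adjusted p = 0.0266) and -0.23 (0.00801).

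Nqo1, which reduces quinones, ran from 6.52 to 6.86 on LPS plus PGE arrays, from 6.79 to 7.17 on LPS arrays and from 6.57 to 6.98 on untreated arrays, all overlapping. Its change with LPS was 0.13 ± 0.13 (limma adjusted p = 0.57, 95% interval -0.14 to 0.41), and LPS plus PGE against LPS gave -0.18 ± 0.13 (limma adjusted p = 0.315, 95% interval -0.45 to 0.10). Gclm, the modifier subunit of the enzyme that begins glutathione synthesis, ran from 11.30 to 11.50 on LPS plus PGE arrays, from 11.36 to 11.68 on LPS arrays and from 11.53 to 11.69 on untreated arrays. With LPS plus PGE it lay below every untreated array, a change of -0.18 ± 0.08 that missed the threshold (limma adjusted p = 0.0952). This change passed with a trended and robust variance (0.0296) and with array weights (0.0486), but under none of the other scalings. There it was -0.21 after quantile normalization (limma adjusted p = 0.0652), -0.13 after cyclic loess normalization (0.249) and -0.05 with equal array medians (0.612). Gclc, the catalytic partner of Gclm, was in contrast higher with LPS plus PGE, at 10.00 ± 0.09 (SD, n = 4), than with LPS, at 9.75 ± 0.04 (SD, n = 3), or untreated, at 9.77 ± 0.09 (SD, n = 4). The difference from LPS was 0.26 ± 0.07 (limma adjusted p = 0.022; 0.0585 without LPS replicate 2), and that from untreated was 0.23 ± 0.07 (limma adjusted p = 0.0178; 0.0543 without LPS plus PGE replicate 1).

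The windows before the start sites of Srxn1, Txnrd1 and Gclm, all known NRF2 targets, are shown as those with matches to the motifs named next. Srxn1 and Txnrd1 rose with both treatments, and Gclm passed in no comparison. Capitals mark matches on either strand to the antioxidant response element core TGACNNNGC, the AP-1 motif TGACTCA (which reads TGAGTCA on the other strand) or the short cyclic AMP response motif TGACG, which can lie within the core. Of the 3 start sites of Txnrd1, the second is shown, the only one of them with a match.
Srxn1 (chr2:152105274-152105523, plus strand): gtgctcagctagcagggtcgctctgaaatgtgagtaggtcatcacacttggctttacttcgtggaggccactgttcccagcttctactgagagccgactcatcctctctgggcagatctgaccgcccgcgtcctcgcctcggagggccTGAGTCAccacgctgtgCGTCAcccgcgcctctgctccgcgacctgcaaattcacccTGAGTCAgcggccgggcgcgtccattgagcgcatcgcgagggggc
Txnrd1 (chr10:82858956-82859205, plus strand): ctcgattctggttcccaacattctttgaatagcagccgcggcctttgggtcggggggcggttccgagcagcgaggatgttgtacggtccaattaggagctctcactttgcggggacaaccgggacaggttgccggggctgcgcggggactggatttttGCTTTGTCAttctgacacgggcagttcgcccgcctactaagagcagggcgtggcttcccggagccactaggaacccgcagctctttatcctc
Gclm (chr3:122245307-122245556, plus strand): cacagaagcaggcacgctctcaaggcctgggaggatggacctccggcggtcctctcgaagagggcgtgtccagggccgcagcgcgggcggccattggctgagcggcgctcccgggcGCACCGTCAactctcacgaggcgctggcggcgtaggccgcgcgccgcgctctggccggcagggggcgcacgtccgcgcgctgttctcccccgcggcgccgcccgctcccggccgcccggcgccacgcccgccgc
Srxn1 holds 2 AP-1 matches, 102 to 96 and 45 to 39 bases before the start, and 1 short motif, 85 to 81 bases before it. With the bases after it, the AP-1 match nearer the start reads TGAGTCAgc. It departs from the searched element core only in a G where the core has a C, and looser forms of the core were not searched. Txnrd1 holds 1 element core, 92 to 84 bases before the start, and Gclm 1 element core, 134 to 126 bases before the start, with a short motif inside it. Over all 32841 windows, 10.2% hold the element core, 4.46% the AP-1 motif and 17.8% the short motif, while the full cyclic AMP response element TGACGTCA is in 1.55% of all windows and in none of these 8 genes. The windows of Slc7a11, Nqo1 and Cybb hold none of the motifs searched, which says only that these letters are not in those 250 bases.

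Regulators of this set were listed as NRF2 control genes, 8 of 8 measured. With LPS, 3 rose and 1 fell by limma, where 6.55% of all genes were higher and 6.69% lower. With LPS plus PGE against untreated 4 rose and 1 fell, where 13.8% of all genes were higher and 17.9% lower. The list's median changes were 0.16 and 0.20, beside -0.015 and 0.017 for all genes. Nfe2l2 itself averaged 12.28 ± 0.06 (SD, n = 4) on LPS plus PGE arrays, 12.21 ± 0.11 (SD, n = 3) on LPS arrays and 11.91 ± 0.03 (SD, n = 4) on untreated arrays, a rise with LPS of 0.30 ± 0.06 (limma adjusted p = 0.00783; 0.0503 with equal array medians). Its inhibitor Keap1 had 7.98 ± 0.07 (SD, n = 4) on LPS plus PGE arrays, 8.17 ± 0.19 (SD, n = 3) on LPS arrays and 8.50 ± 0.05 (SD, n = 4) on untreated arrays. Keap1 fell with LPS plus PGE against untreated (-0.52 ± 0.08, limma adjusted p = 0.000333) and with LPS (-0.33 ± 0.08, limma adjusted p = 0.0205; 0.0863 without LPS replicate 2).

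The small Maf protein gene Maff had the largest change of that list, 3.82 ± 0.13 with LPS (limma adjusted p = 9.37e-10) and 4.14 ± 0.12 with LPS plus PGE, both against untreated. The autophagy receptor Sqstm1, itself an NRF2 target, rose by 0.46 ± 0.06 with LPS (limma adjusted p = 0.000159). Bach1, a repressor that occupies the antioxidant response elements of Hmox1 and related genes, was the only one of the 8 to pass with LPS plus PGE against LPS, where 24.7% of all genes passed. It averaged 10.57 ± 0.08 (SD, n = 4) on LPS plus PGE arrays, 10.06 ± 0.03 (SD, n = 3) on LPS arrays and 9.99 ± 0.07 (SD, n = 4) on untreated arrays, a rise of 0.50 ± 0.06 over LPS (limma adjusted p = 0.000391).

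Among the remaining redox genes, the metallothionein gene Mt2 and the thioredoxin inhibitor Txnip had the largest changes. Mt2, a metal-binding antioxidant protein gene, averaged 11.60 ± 0.21 (SD, n = 4) on LPS plus PGE arrays, 10.18 ± 0.23 (SD, n = 3) on LPS arrays and 9.22 ± 0.11 (SD, n = 4) on untreated arrays. It rose by 0.96 ± 0.13 with LPS (limma adjusted p = 0.000245) and by another 1.42 ± 0.13 with PGE (limma adjusted p = 2.39e-05). Mt1 rose by 0.55 ± 0.08 with LPS plus PGE against LPS (limma adjusted p = 0.000788) and did not pass with LPS alone (0.10 ± 0.08, limma adjusted p = 0.442). Txnip, which binds and inhibits thioredoxin, averaged 10.18 ± 0.09 (SD, n = 4) on LPS plus PGE arrays, 10.52 ± 0.15 (SD, n = 3) on LPS arrays and 11.92 ± 0.09 (SD, n = 4) on untreated arrays, a fall of -1.39 ± 0.08 with LPS (limma adjusted p = 2.03e-07). Its further difference with PGE, -0.34 ± 0.08 (limma adjusted p = 0.0147), ended with equal array medians (0.169) and without LPS replicate 3 (0.0526).

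By list, LPS left 1 of 10 glutathione genes lower (Mgst1, -0.28 ± 0.07; limma adjusted p = 0.0827 without LPS replicate 3) and 2 of 9 thioredoxin and peroxiredoxin genes lower (Txnip and Prdx2). Of all genes, 6.69% were lower with LPS. Prdx2, a peroxide-removing enzyme, had -0.38 ± 0.11 with LPS and 0.33 ± 0.11 with LPS plus PGE against LPS, and both calls ended without LPS replicate 3 (limma adjusted p = 0.154 and 0.185). Of 10 haem, iron and NADPH supply genes, 2 were lower with LPS, the iron exporter Slc40a1 (-0.47 ± 0.12) and the haem transporter Slc48a1 (-0.21 ± 0.06), with adjusted p-values of 0.0801 without LPS replicate 1 and 0.127 without LPS replicate 2. With LPS plus PGE against LPS, 4 of 10 glutathione genes were higher and 1 lower, where 11.9% of all genes were higher and 12.9% lower. No haem, iron or NADPH supply gene passed there by limma, with 0 also at an unadjusted p under 0.05. Of these glutathione genes, Gclc and Slc3a2 had calls that ended under alternatives given above. The others were Gsta4 (0.40 ± 0.11), Chac1 (0.31 ± 0.10) and Gss (-0.34 ± 0.10), whose calls all ended after cyclic loess normalization (limma adjusted p = 0.0875, 0.0872 and 0.251). With LPS plus PGE against untreated, 3 glutathione genes rose and 1 was lower, where 13.8% of all genes were higher and 17.9% lower. Among them were Gsta4 (0.30 ± 0.10) and Mgst1 (-0.25 ± 0.07), whose calls ended after cyclic loess normalization (limma adjusted p = 0.15 and 0.0713). In that comparison the thiol reductase gene Glrx rose (0.48 ± 0.09), as did Mt2 (2.37 ± 0.12) and Mt1 (0.65 ± 0.07), while Txnip (-1.73 ± 0.08) and Slc40a1 (-0.52 ± 0.11) fell. The bilirubin-producing reductase gene Blvra was lower there (-0.21 ± 0.06), a call that ended with equal array medians (limma adjusted p = 0.315).

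Over all 62 measured genes of the 7 lists, 5 rose and 6 fell with LPS, 11 rose and 2 fell with LPS plus PGE against LPS, and 13 rose and 6 fell with LPS plus PGE against untreated, beside the shares of all genes given above. Their medians were -0.026, 0.012 and -0.042. Of those called, 5 of 11, 4 of 13 and 12 of 19 kept their call under quantile normalization, equal array medians, cyclic loess normalization and every single array left out. The 5 with LPS were Gch1, Maff, Mt2, Sqstm1 and Txnip, and the 4 with LPS plus PGE against LPS were Bach1, Gch1, Mt1 and Mt2.

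**Figure D3:**
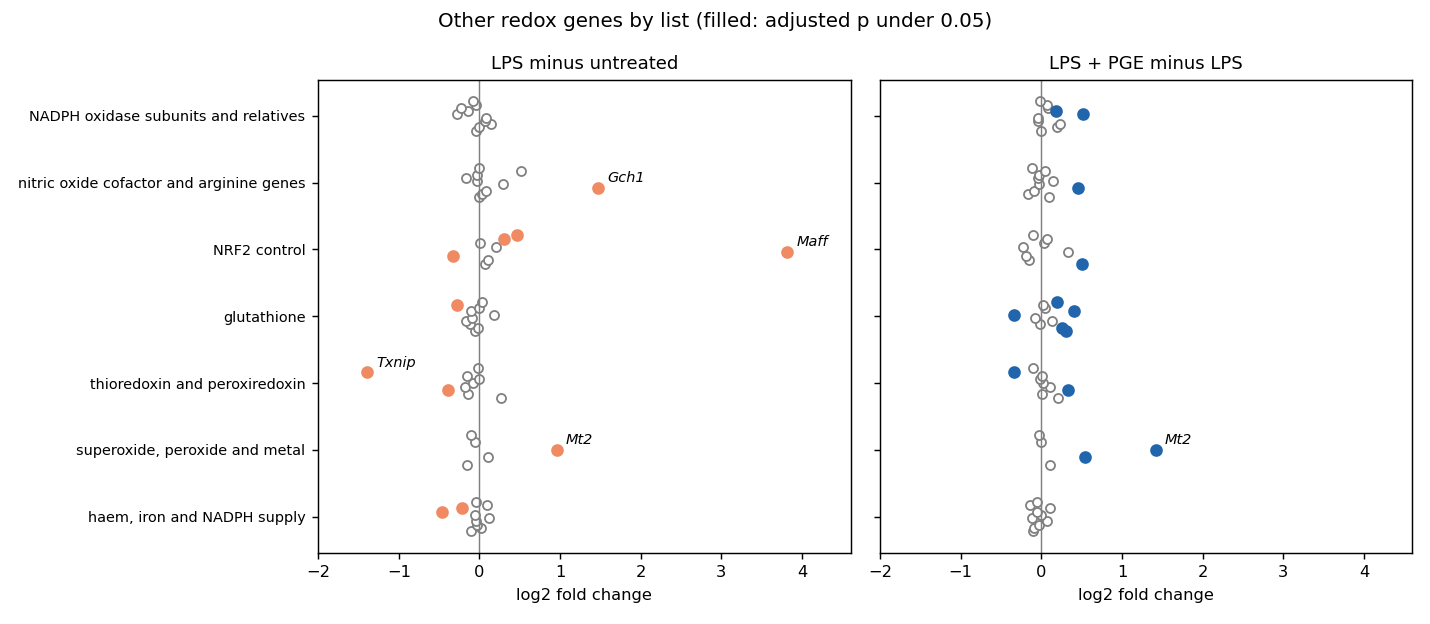
Log2 fold change (horizontal axis) of the 62 other redox genes by list, LPS minus untreated on the left and LPS plus PGE minus LPS on the right, with 1 point per gene; filled points passed the adjusted p of 0.05 and those beyond 0.8 are named. Most genes lie near 0 in both panels, with Maff (3.82), Gch1 (1.47) and Txnip (-1.39) apart on the left and Mt2 (1.42) apart on the right.

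The 10 genes also differed in how tightly their arrays agreed. The residual SD within groups was 0.256 for Nox1, 0.249 for Slc7a11 and 0.210 for Nos2, larger than that of 95.4%, 94.6% and 87.6% of all genes. It was 0.049 for Hmox1, 0.053 for Cybb and 0.060 for Srxn1, with 4.14%, 5.58% and 9.27% of all genes below them.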

How the data were processed

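Transcript levels of 11 samples were taken from the deposited table of 35309 probe sets. The authors deposited them on a log2 scale, which is inferred from their range (1.20 to 13.81) and from the RMA method (background removal, between-array scaling and probe summary); per the submitters' processing notes, RMA, Partek, R 2.13.1 and Affymetrix Power Tools were used, with no role stated. The build behind the annotation was not given in those sources. Probe sets with 1 gene symbol (21143; 1870 had several and 12296 none) were reduced to the one with the highest mean per gene. Each of the 10 genes had 1 such probe set.

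A group-means model was fitted to 18755 genes with limma 3.58.1 in R 4.3.3 (8 residual and 3.77 prior degrees of freedom), two-sided, with Benjamini-Hochberg adjustment over all genes, and tested on simulated data. The number of arrays limits the precision. Promoter windows and motifs came from RefSeq tables of GRCm38.p6, and figures from matplotlib 3.10.9 in Python 3.11.15.

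The 10 genes, the 7 related lists (71 genes, 62 measured) and the 8 marker lists (52 genes, 47 measured) were chosen with earlier results of these data known. Named were all 10 genes, up to 3 passing genes per list and comparison with the largest change, Nfe2l2, Gclc, Cyba and Arg1, and the 3 closest profiles of each gene that changed at least 2-fold, leaving out predicted and microRNA genes. Slc3a2 and single cell type markers were named outside this rule. Alternatives were other scalings, variance models, filters, probe set rules, a replicate block and single arrays left out.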

Additional observations from a re-analysis of the deposited data

Results flagged for a closer look

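Gclm in untreated cells had 1 array apart from the others. Untreated replicate 1 stood at 11.69 and its nearest neighbour at 11.55, and this gap took up 0.837 of the range of the 4 arrays, above Dixon's 95% critical value for 4 samples. Of 20 groups of 4 arrays examined for the 10 genes this was the 1 found, and chance alone marks about 1 in 20.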

How the results depend on the processing

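The direction of every called change of the 10 genes was the same under all alternatives run. With each array left out in turn, 326 calls over the 10 genes and 3 comparisons were as before, 2 were lost (Srxn1 with LPS without LPS replicate 2, Txnrd1 with LPS plus PGE against LPS without LPS replicate 1) and 2 were gained (Nos2 without LPS replicate 3). Counts of the 10 genes ran from 4 to 6 rises with LPS, from 2 to 3 rises and 2 to 2 falls with LPS plus PGE against LPS, and from 4 to 5 rises and 1 to 1 falls with LPS plus PGE against untreated when single arrays were left out. For the related genes the same omissions gave 1 to 6 falls with LPS, and 5 to 10 rises and 1 to 3 falls with LPS plus PGE against LPS.

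With equal array medians, the falls among the 10 genes numbered 1 with LPS plus PGE against LPS and 0 against untreated (Hmox1 then had a limma adjusted p of 0.0608), and the related genes gave 22 rises and 0 falls in the first and 3 falls in the second. Over all genes, LPS plus PGE against LPS had 4641 calls as deposited, 1899 after quantile normalization and 2173 after cyclic loess normalization, and against untreated 5946, 4404 and 3897. Related genes gave 5 rises and 1 fall after quantile normalization in the first of these comparisons, and 6 rises and 1 fall after cyclic loess normalization, which left 3 related falls against untreated. A trended and robust variance gave 10 related falls with LPS, 5 with LPS plus PGE against LPS, and 2 falls of the 10 genes against untreated; array weights gave 1 related fall with LPS plus PGE against LPS and 2 falls of the 10 genes against untreated. A fit of LPS and untreated alone gave 2 related falls. Leaving out genes below the median gave 10 related falls with LPS and 7 related rises with LPS plus PGE against LPS; it left 1 fall of the 10 genes there, because the filter removed Nox1.

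Requiring a 2-fold change as well left 3 of the 10 genes higher with LPS, with 2 related rises and 1 fall. It left 0 higher and 1 lower with LPS plus PGE against LPS, with 1 related rise and 0 falls, and 0 lower against untreated, with 3 related rises and 1 fall. Arrays of the same replicate number correlated in their deviations from group means at -0.02 to 0.21 over 10 pairs, and 18 of 20 best matches had the same number, a hint from the data. With replicate number as a block, 5 of the 10 genes rose with LPS, 3 rose and 2 fell with LPS plus PGE against LPS, and 4 rose and 1 fell against untreated, with no call of the 10 genes changed.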

Other observations

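LPS replicate 3 was the lowest LPS array for 8 of the 10 genes, whereas it was the lowest for 25.9% of all genes. LPS plus PGE replicate 2 was the lowest of its group for 6 of the 10 genes, against 21.8% of all genes. These counts were made after the values were seen, and the 10 genes are not independent.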
